A study of Homo sapiens with 4 samples.

Results

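Lysosomal genes of MV4-11 cells were described upon knockdown of CEBPG. The genes were 45 hydrolases, carriers, membrane proteins and transcription factors chosen by name and 19 genes whose symbol begins with ATP6V0 or ATP6V1, which gave 64 genes of the 16490 in the table. MV4-11 is a human acute myeloid leukemia (AML) cell line. The sh-NC group (2 libraries) were hairpin control cells, and the sh-CEBPG#3 group (2 libraries) carried a hairpin against CEBPG in the pLKO.1-puro lentiviral vector. The methods describe lentiviral infection and selection with puromycin and do not name the vector of the control, and knockdown in the sequenced cells rests on a single hairpin. Separate cultures for the libraries of a group are named neither in the labels nor in the methods, so p-values measure the spread between these libraries, which may be technical.

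The lysosome is the acidic compartment in which cells break down proteins, glycans and lipids, and it is abundant in monocytes and macrophages, which digest what they engulf. Its hydrolases work at low pH, which the vacuolar proton pump (V-ATPase) maintains by turning ATP hydrolysis in the cytosolic V1 domain into proton flow through the membrane domain V0. Many of these genes hold the letters CACGTG near their start, which is bound by TFEB, TFE3 and MITF, related factors that move to the nucleus when nutrient signalling through mTORC1 is low. Inherited loss of single hydrolases causes lysosomal storage diseases.

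The level of a gene was its FPKM (fragment counts scaled to transcript length and library size), summed over its RefSeq transcripts. Sums over all genes ranged from 364353 to 389766 FPKM per library. FPKM gives no read counts, so depth is unknown and no counting interval is given. CEBPG, the targeted gene, had 30.4 and 33.6 FPKM in sh-NC cells and 19.2 and 17.1 FPKM in sh-CEBPG#3 cells, and 56.8% of the control level remained (log2 change -0.78, SE 0.09, adjusted p = 8.88e-05, limma with Benjamini-Hochberg adjustment). Changes are differences of the group means of log2(FPKM + 1), which understates the change of genes with low values. PTPRC, CD33, FLT3, HOXA9, MEIS1 and LYZ, fixed as markers of this myelomonocytic line, were all detected in the 4 libraries. T cell and erythroid markers were not analysed here.

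The promoter letters are shown first. The choice of genes did not use them, but many lysosomal genes are known to hold them. Their share is not a result of the knockdown. The median promoter GC was 67.8% for the members and 65.3% for the genes tested. RefSeq promoter sequences (GRCh38.p14, 250 bases before to 50 after each gene's start) were matched by symbol for 46 of the 64 genes. CACGTG reads the same on both strands, and it was in 12 of these 46 promoters (26.1%), against 13.1% of the 9185 promoters of genes tested and 8.77% of the 27305 in the table. The longer TCACGTGA, which contains it and also reads the same on both strands, was in 7 of 46 (15.2%), against 2.38% of the tested genes. Windows of 30 bases follow for 5 genes that rose and hold TCACGTGA, for CTSD and NEU1, which rose and hold the shorter match, and for LAMP1, which fell. They run 5′ to 3′ on the gene's strand, lie before its start, and have CACGTG in capitals.

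CTSA (chr20:45891298-45891327, plus strand): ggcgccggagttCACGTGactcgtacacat
GAA (chr17:80101493-80101522, plus strand): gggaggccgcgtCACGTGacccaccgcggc
MCOLN1 (chr19:7522571-7522600, plus strand): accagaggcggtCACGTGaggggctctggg
ATP6V0D1 (chr16:67481199-67481228, minus strand): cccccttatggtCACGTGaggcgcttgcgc
ATP6V1G1 (chr9:114587699-114587728, plus strand): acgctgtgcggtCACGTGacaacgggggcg
CTSD (chr11:1763957-1763986, minus strand): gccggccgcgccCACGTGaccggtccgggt
NEU1 (chr6:31862930-31862959, minus strand): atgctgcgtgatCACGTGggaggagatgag
LAMP1 (chr13:113297199-113297228, plus strand): gacccgcgggatCACGTGacgcccgggcgc

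LAMP1 had 6 matches to CACGTG in its promoter, more than any other of the genes matched. Of the genes with a promoter sequence, CACGTG was in 10 of 30 that rose, in 1 of 5 that fell and in 1 of 9 that did not pass the test. The share among all genes that rose or fell was not computed. These small counts therefore do not link the letters to the direction of change. A match is a description of these letters, and binding was not measured.

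Most lysosomal genes were higher in sh-CEBPG#3 cells. Of the 64 genes, 60 averaged 0.5 FPKM or more and were tested, and 42 rose, 6 fell and 12 did not pass an adjusted p of 0.05 (limma with Benjamini-Hochberg adjustment). The share that rose was 70% against 18.5% of the 12142 genes tested, and the share that fell was 10% against 23.8%. For either direction together it was 80% against 42.2%. The counts by role below are read against the same shares of all genes. The median log2 change was 0.48 over the tested members and 0.41 over all 64, while it was -0.04 over all genes tested. Both sh-CEBPG#3 libraries were above both sh-NC libraries for 44 members, where 31.5% of all genes tested showed this, and below them for 10, where 40.2% did. Past the study's threshold (unadjusted p under 0.05 and an absolute log2 change above 1) were 7 members that rose and 1 that fell. This was 13.3% against 3.41% of all genes (2.36% higher and 1.05% lower). The paper applied the threshold to DESeq2 results, and here it was applied to limma on log2(FPKM + 1), so the genes passing may differ. ARSA, SMPD1 and ATP6V1E2 had FPKM ratios of 2.07, 2.19 and 0.34 to sh-NC and did not pass it here. LGMN, ATP6V1G2, ATP6V1FNB and ATP6V1B1-AS1 were under 0.5 FPKM and were not tested, and ATP6V1E2 passed this filter through its level in sh-NC cells.

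**Figure D1:**
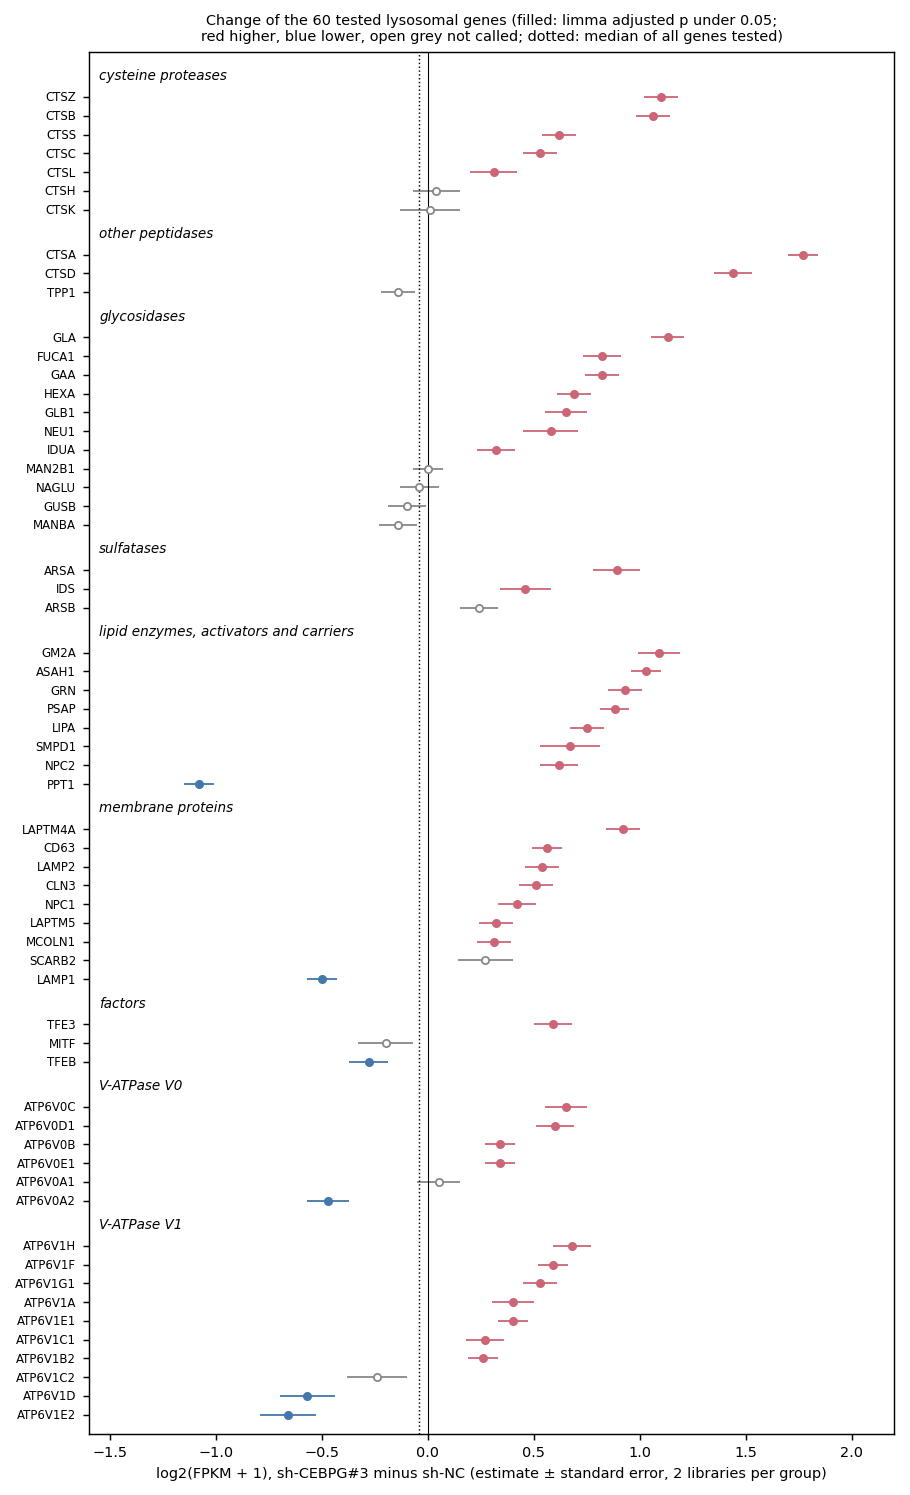
Change of each tested lysosomal gene on the x axis (log2(FPKM + 1), sh-CEBPG#3 minus sh-NC, with the standard error), grouped by role on the y axis. Of the 60 genes, 42 lie to the right as filled red points and 6 to the left as filled blue points, from PPT1 at -1.08 to CTSA at 1.77.

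The members were well expressed in the control cells, with a median of 18.8 FPKM in sh-NC cells against 7.57 FPKM for all genes tested. Together they made up 0.595% and 0.605% of the FPKM total in sh-NC cells and 0.863% to 0.884% in the sh-CEBPG#3 libraries. The summed level of the 64 genes was 2167 and 2346 FPKM in sh-NC cells and 3446 and 3248 FPKM in sh-CEBPG#3 cells, and the groups did not overlap. As these are bulk libraries, a change in the share of cells that express a gene and a change in RNA per cell cannot be told apart.

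**Figure D2:**
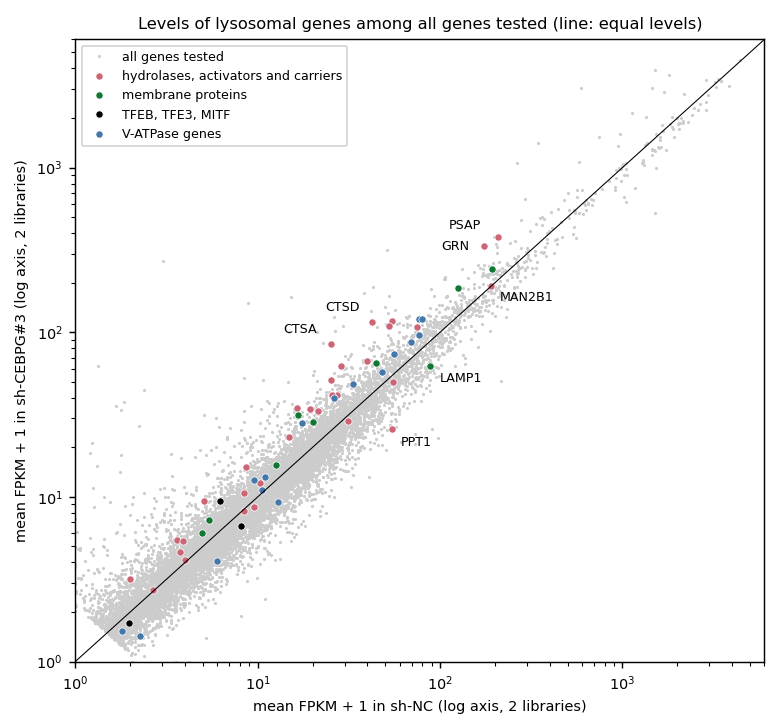
Mean level of each gene in sh-NC cells (x axis, FPKM + 1, log axis) and in sh-CEBPG#3 cells (y axis, FPKM + 1, log axis), with lysosomal genes coloured over all 12142 genes tested in grey. PSAP, GRN, CTSA and CTSD lie above the line of equal levels, MAN2B1 lies on it, and PPT1 and LAMP1 lie below it.

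Of the proteases, CTSA and CTSD rose most. CTSA, a serine carboxypeptidase that also shields GLB1 and NEU1 from breakdown in a shared complex, lies on chromosome 20 from 45891335 to 45898820 (GRCh38). It had 23.5 and 24.7 FPKM in sh-NC cells and 83.9 and 84.9 FPKM in sh-CEBPG#3 cells. The groups were far apart and the spread within each was small (3.50-fold, log2 change 1.77, SE 0.07, adjusted p = 1e-07 in limma), the largest increase among the members. CTSD, the main aspartic protease of the lysosome, lies on chromosome 11 from 1752755 to 1763927. It had 38.5 and 44.3 FPKM in sh-NC cells and 119 and 108 FPKM in sh-CEBPG#3 cells (2.74-fold, log2 change 1.44, SE 0.09, adjusted p = 1.49e-06 in limma). TPP1, a tripeptidyl peptidase whose loss causes a neuronal ceroid lipofuscinosis, did not follow them. It had 51.8 and 56.1 FPKM in sh-NC cells and 51.2 and 46.8 FPKM in sh-CEBPG#3 cells, which lay lower without passing the test (adjusted p = 0.191 in limma).

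Of the 7 cysteine proteases tested, 5 rose and 2 did not pass the test. CTSZ, a carboxypeptidase, had 51 and 56.4 FPKM in sh-NC cells and 121 and 112 FPKM in sh-CEBPG#3 cells (log2 change 1.10, SE 0.08, adjusted p = 4.71e-06 in limma). CTSB, an abundant endo- and exopeptidase, had 49.8 and 53.3 FPKM against 112 and 104 FPKM (log2 change 1.06, SE 0.08, adjusted p = 4.69e-06 in limma). In both genes the sh-CEBPG#3 libraries lay at more than 2 times the control, with ratios of 2.16 and 2.10. CTSC, which activates the serine proteases of myeloid granules, had the highest level of the group in sh-NC cells. It had 69.5 and 77.9 FPKM in sh-NC cells and 108 and 106 FPKM in sh-CEBPG#3 cells (log2 change 0.53). CTSS, which trims the invariant chain of MHC class II, rose by 0.62 on the log2 scale, and CTSL by 0.31 (adjusted p = 0.0402 in limma). The call for CTSL did not hold without sh-NC replicate 1 or without either sh-CEBPG#3 library (adjusted p from 0.0661 to 0.195). CTSH and CTSK had log2 changes of 0.04 and 0.01 with overlapping libraries. LGMN, an asparaginyl endopeptidase, was at most 0.108 FPKM in each library.

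**Figure D3:**
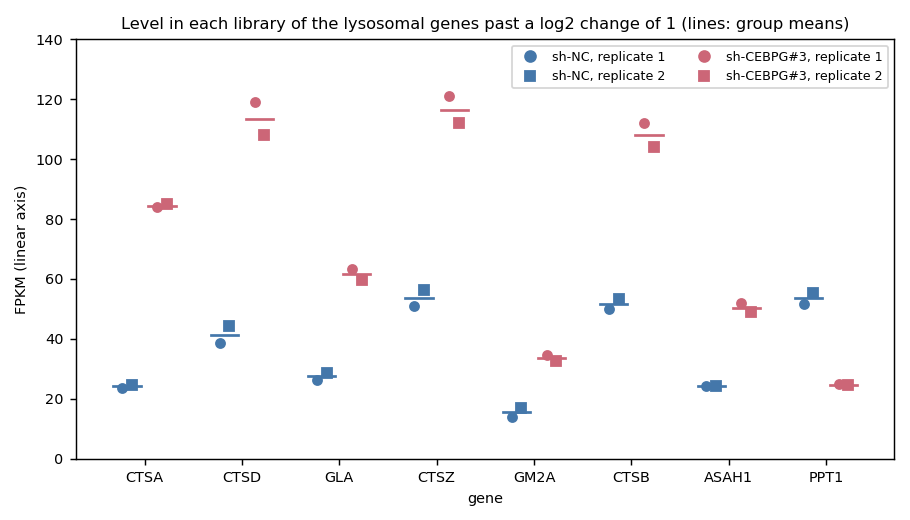
FPKM (y axis, linear) in each of the 4 libraries for the 8 members past the study's threshold, with a line at each group mean. The sh-CEBPG#3 libraries lie above the sh-NC libraries for CTSA, CTSD, GLA, CTSZ, GM2A, CTSB and ASAH1, and below them for PPT1 (24.8 and 24.5 against 51.7 and 55.3).

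Among the 11 glycosidases, 7 rose and 4 did not pass the test (63.6% called, against 42.2% of all genes). GLA, the α-galactosidase that is lost in Fabry disease, lies on chromosome X from 101397803 to 101407925. It had 26.4 and 28.7 FPKM in sh-NC cells and 63.4 and 59.8 FPKM in sh-CEBPG#3 cells (2.23-fold, log2 change 1.13, SE 0.08, adjusted p = 3.58e-06 in limma). FUCA1, a fucosidase, and GAA, the acid α-glucosidase that degrades glycogen, each rose by 0.82 on the log2 scale. HEXA, a subunit of β-hexosaminidase, rose by 0.69. GLB1 (β-galactosidase) and NEU1 (a sialidase), the partners of CTSA, rose by 0.65 and 0.58. Relative to its partners, CTSA was higher in both sh-CEBPG#3 libraries. The ratio of CTSA to GLB1 was 1.93 and 1.60 in sh-NC cells and 3.77 and 3.83 in sh-CEBPG#3 cells, and that of CTSA to NEU1 was 9.33 and 9.05 against 16.4 and 22.1. The differences between these ratios were not tested. IDUA, which cleaves iduronic acid from glycosaminoglycans, rose by 0.32 (adjusted p = 0.0176 in limma), a call that was lost without sh-NC replicate 1 or sh-CEBPG#3 replicate 1 (adjusted p = 0.0986 and 0.0808).

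MAN2B1, an α-mannosidase, was the most abundant glycosidase and hardly moved. It had 180.2 and 199 FPKM in sh-NC cells and 194 and 185 FPKM in sh-CEBPG#3 cells (log2 change 0.00, SE 0.07, adjusted p = 0.988 in limma), and the groups overlapped. GUSB (β-glucuronidase), NAGLU and MANBA had log2 changes of -0.10, -0.04 and -0.14, and a missed threshold does not show that their levels were equal.

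Of the sulfatases, ARSA and IDS rose. ARSA, the arylsulfatase that degrades sulfatides, had 4.35 and 3.85 FPKM in sh-NC cells and 9.14 and 7.81 FPKM in sh-CEBPG#3 cells (log2 change 0.89, SE 0.11, adjusted p = 0.000119 in limma). IDS, which removes sulfate from dermatan and heparan sulfate, rose by 0.46 (adjusted p = 0.011 in limma). It shares sequence with the pseudogene IDSP1, so its reads may be divided between them. The call for IDS was lost without sh-CEBPG#3 replicate 1 (adjusted p = 0.0772). ARSB, the most abundant sulfatase, had 9.16 and 9.51 FPKM against 11.8 and 10.6 FPKM and did not pass the test (adjusted p = 0.0528 in limma).

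The proteins of lipid turnover passed the test in 8 of 8 cases, and 7 rose. GM2A, which lifts the ganglioside GM2 to β-hexosaminidase, had 14 and 16.8 FPKM in sh-NC cells and 34.7 and 32.7 FPKM in sh-CEBPG#3 cells (2.19-fold, log2 change 1.09, SE 0.10, adjusted p = 1.77e-05 in limma). ASAH1, the acid ceramidase, had 24.2 and 24.1 FPKM against 51.8 and 49.1 FPKM (log2 change 1.03, SE 0.07, adjusted p = 4.67e-06 in limma). Both thus stood at about the same distance from the control as CTSB. PSAP, the precursor of the saposins that help lipid hydrolases, was the most abundant member of all. It had 199.8 and 213 FPKM in sh-NC cells and 389 and 369.8 FPKM in sh-CEBPG#3 cells (log2 change 0.88, adjusted p = 1.01e-05 in limma). GRN (progranulin), which travels to the lysosome with PSAP, had 164 and 183 FPKM against 342 and 321 FPKM (log2 change 0.93). Their ratio changed little, at 0.822 and 0.859 in sh-NC cells and 0.879 and 0.867 in sh-CEBPG#3 cells. LIPA, the acid lipase for cholesteryl esters, NPC2, the soluble carrier of cholesterol, and SMPD1, the acid sphingomyelinase, rose by 0.75, 0.62 and 0.67 on the log2 scale. SMPD1 was low, with a mean of 0.99 FPKM in sh-NC cells and 2.17 FPKM in sh-CEBPG#3 cells.

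PPT1 was the exception. This palmitoyl-protein thioesterase removes fatty acids from proteins, and its loss causes infantile neuronal ceroid lipofuscinosis. The gene lies on chromosome 1 from 40071461 to 40097252. It had 51.7 and 55.3 FPKM in sh-NC cells and 24.8 and 24.5 FPKM in sh-CEBPG#3 cells, so that 46.1% of the control level remained (log2 change -1.08, SE 0.07, adjusted p = 3.68e-06 in limma). On the scale of log2(FPKM + 1) this was the largest decrease among the members tested. As a percent of control, ATP6V1E2 fell further, to 34.2%, from a low level (1.21 and 1.28 FPKM in sh-NC cells). In sh-NC cells PPT1 was level with TPP1, with ratios of 0.999 and 0.987, and in sh-CEBPG#3 cells the ratio was 0.486 and 0.525.

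Among the 9 membrane proteins, 7 rose and 1 fell. LAPTM4A, a small transmembrane protein of late endosomes, had 14.7 and 16.6 FPKM in sh-NC cells and 30.2 and 30.7 FPKM in sh-CEBPG#3 cells (log2 change 0.92, SE 0.08, adjusted p = 2.29e-05 in limma). LAPTM5, its relative in blood cells, was the most abundant of the group, with 179 and 204 FPKM against 245 and 234 FPKM (log2 change 0.32, adjusted p = 0.00836 in limma). The call for LAPTM5 was lost without sh-CEBPG#3 replicate 1 or 2 (adjusted p = 0.113 and 0.0579), as was that for MCOLN1 without sh-CEBPG#3 replicate 1 (adjusted p = 0.0631). CD63, a tetraspanin, CLN3 and NPC1, the cholesterol exporter that takes its cargo from NPC2, rose by 0.56, 0.51 and 0.42. MCOLN1, the calcium channel of the lysosome, rose by 0.31. SCARB2, a transport receptor of the lysosomal membrane, had 3.75 and 4.21 FPKM against 5.76 and 4.33 FPKM and did not pass the test (adjusted p = 0.109 in limma), though it did without sh-CEBPG#3 replicate 2 or sh-NC replicate 2 (adjusted p = 0.0183 and 0.0493).

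LAMP1 and LAMP2, known as the main glycoproteins of the lysosomal membrane, moved in opposite directions. LAMP1 had 84.7 and 90.4 FPKM in sh-NC cells and 63.9 and 59.8 FPKM in sh-CEBPG#3 cells (log2 change -0.50, SE 0.07, adjusted p = 0.000534 in limma). LAMP2 had 42.3 and 45.3 FPKM against 67 and 61.7 FPKM (log2 change 0.54, SE 0.08, adjusted p = 0.000378 in limma). The ratio of LAMP2 to LAMP1 was 0.499 and 0.5 in sh-NC cells and 1.05 and 1.03 in the sh-CEBPG#3 libraries.

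LAMP2 is spliced to alternative last exons. NM_002294 encodes LAMP2A, the receptor of chaperone-mediated autophagy, and NM_013995 encodes LAMP2B. Tested transcript by transcript over 18624 RefSeq rows, of which 8.24% passed an adjusted p of 0.05 in limma, LAMP2A went from 3.56 and 3.15 FPKM to 12.4 and 11.7 FPKM (log2 change 1.59, SE 0.11, adjusted p = 0.0133). LAMP2B went from 38.6 and 41.9 FPKM to 54.5 and 49.9 FPKM and did not pass (log2 change 0.37, adjusted p = 0.072 in limma). LAMP2A thus made up 8.41% and 6.96% of LAMP2 in sh-NC cells and 18.6% and 19% in sh-CEBPG#3 cells. The difference in share was not tested. Both LAMP2 transcripts thus lay higher in sh-CEBPG#3 cells, whereas the transcripts of CLN3 differed in direction. NM_001042432 went from 5.35 and 4.57 FPKM to 13.7 and 11.6 FPKM (log2 change 1.19, adjusted p = 0.0245 in limma), while NM_000086, the most abundant in sh-NC cells, went from 12.8 and 12.9 FPKM to 7.16 and 10.1 FPKM (log2 change -0.54, adjusted p = 0.144). How short reads are divided between transcripts of a gene is an estimate. Of the 90 member transcripts tested, 30 rose and 2 fell, and no member had transcripts called in both directions.

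**Figure D4:**
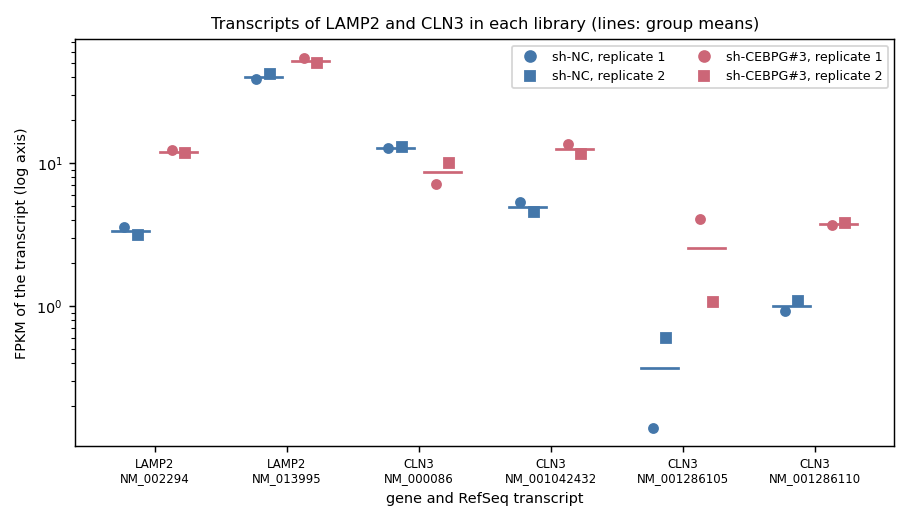
FPKM of each tested RefSeq transcript (y axis, log axis) of LAMP2 and CLN3 in each of the 4 libraries, with a line at each group mean. LAMP2A (NM_002294) and the CLN3 transcripts NM_001042432 and NM_001286110 are higher in both sh-CEBPG#3 libraries, while NM_000086 is lower.

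TFE3, TFEB and MITF, the factors among the members, moved differently from each other. TFE3 had 5.31 and 5.16 FPKM in sh-NC cells and 8.21 and 8.6 FPKM in sh-CEBPG#3 cells (log2 change 0.59, SE 0.09, adjusted p = 0.000548 in limma). TFEB had 6.89 and 7.33 FPKM against 5.78 and 5.57 FPKM (log2 change -0.28, SE 0.09, adjusted p = 0.0306 in limma). The groups did not overlap for either gene, but the call for TFEB was lost without sh-NC replicate 2 or without either sh-CEBPG#3 library (adjusted p from 0.0648 to 0.147) and under a replicate block (adjusted p = 0.0538 in limma). MITF was low, with means of 0.982 and 0.72 FPKM, and did not pass the test (adjusted p = 0.25 in limma). These factors are controlled by their place in the cell, which RNA does not show.

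Of the V-ATPase, 16 subunit genes were tested, and 11 rose and 3 fell (68.8% and 18.8%, against 18.5% and 23.8% of all genes), so that the share that fell was near that of all genes. The increases were smaller than those of the leading hydrolases, with a largest log2 change of 0.68 for the pump against 1.77 for the soluble proteins. In the membrane domain V0, ATP6V0C, the proton-binding ring subunit, rose most. It had 68.1 and 83 FPKM in sh-NC cells and 124 and 114 FPKM in sh-CEBPG#3 cells (log2 change 0.65, SE 0.10, adjusted p = 0.000452 in limma). ATP6V0D1, which joins the ring to the central stalk, rose by 0.60, and ATP6V0B and ATP6V0E1 each rose by 0.34. The call for ATP6V0B was lost without sh-CEBPG#3 replicate 1 (adjusted p = 0.0801).

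Subunit a anchors V0 and has isoforms that direct the pump to different membranes. ATP6V0A2, the isoform of the Golgi and early endosomes, fell from 11.8 and 12 FPKM to 9.06 and 7.54 FPKM (log2 change -0.47, SE 0.10, adjusted p = 0.00348 in limma). ATP6V0A1 had 9.28 and 9.94 FPKM against 10.8 and 9.29 FPKM, with overlapping groups. TCIRG1, which encodes the isoform of lysosomes and osteoclasts and is not among the 64 genes, rose from 97.7 and 98.1 FPKM to 136 and 129 FPKM (log2 change 0.43). Of the summed FPKM of these 3 isoforms, TCIRG1 made up 82% ± 0.356 in sh-NC cells and 87.8% ± 0.857 in sh-CEBPG#3 cells (SD, n = 2 each). ATP6V0A2 made up 9.95% ± 0.0215 and 5.5% ± 0.459 (SD, n = 2 each).

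In the cytosolic domain V1, 7 genes rose and 2 fell of 10 tested. ATP6V1H, a regulatory subunit, had 17.5 and 15.7 FPKM in sh-NC cells and 28.3 and 26.1 FPKM in sh-CEBPG#3 cells (log2 change 0.68, SE 0.09, adjusted p = 0.000179 in limma). ATP6V1F, a subunit of the central rotor, had the highest level of V1, with 77.3 and 79.3 FPKM against 122 and 116 FPKM (log2 change 0.59, adjusted p = 0.000111 in limma). ATP6V1G1 and ATP6V1E1, which form the peripheral stalks, rose by 0.53 and 0.40. ATP6V1A, the catalytic subunit, ATP6V1C1 and ATP6V1B2, the partner of the catalytic subunit in the head, rose by 0.40, 0.27 and 0.26. For ATP6V1A and ATP6V1C1 the call was lost without sh-CEBPG#3 replicate 1 (adjusted p = 0.0644 and 0.188), for ATP6V1C1 also without sh-NC replicate 1 (adjusted p = 0.0572), and for ATP6V1B2 without sh-CEBPG#3 replicate 1 or 2 (adjusted p = 0.122 and 0.0811). Under a replicate block, ATP6V1B2 and ATP6V1C1 did not pass (adjusted p = 0.0719 and 0.0549 in limma).

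ATP6V1D and ATP6V1E2 fell within V1. ATP6V1D, the shaft of the rotor, had 4.83 and 5.15 FPKM in sh-NC cells and 3.62 and 2.53 FPKM in sh-CEBPG#3 cells (log2 change -0.57, SE 0.13, adjusted p = 0.00613 in limma). It was measured by a single transcript, and the libraries of sh-CEBPG#3 differed more from each other than those of sh-NC. ATP6V1E2, a testis isoform of subunit E, went from 1.21 and 1.28 FPKM to 0.47 and 0.382 FPKM (log2 change -0.66, SE 0.13, adjusted p = 0.00317 in limma), and its log2 change was -1.53 with a pseudocount of 0.01. As it passed the filter only through sh-NC cells, where it is high, its call is given as a description. It made up 2.21% ± 0.00629 of subunit E in sh-NC cells and 0.581% ± 0.0591 in sh-CEBPG#3 cells (SD, n = 2 each), the rest being ATP6V1E1. ATP6V1C2 had means of 0.811 and 0.529 FPKM and did not pass the test (adjusted p = 0.2 in limma). Under 0.5 FPKM in the mean were ATP6V1G2 (at most 0.0496 FPKM), ATP6V1FNB, a neighbour of ATP6V1F that is not a subunit, and ATP6V1B1-AS1, an antisense RNA. The library kit does not mark strand, so reads of the latter and of its sense partner cannot be told apart.

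**Figure D5:**
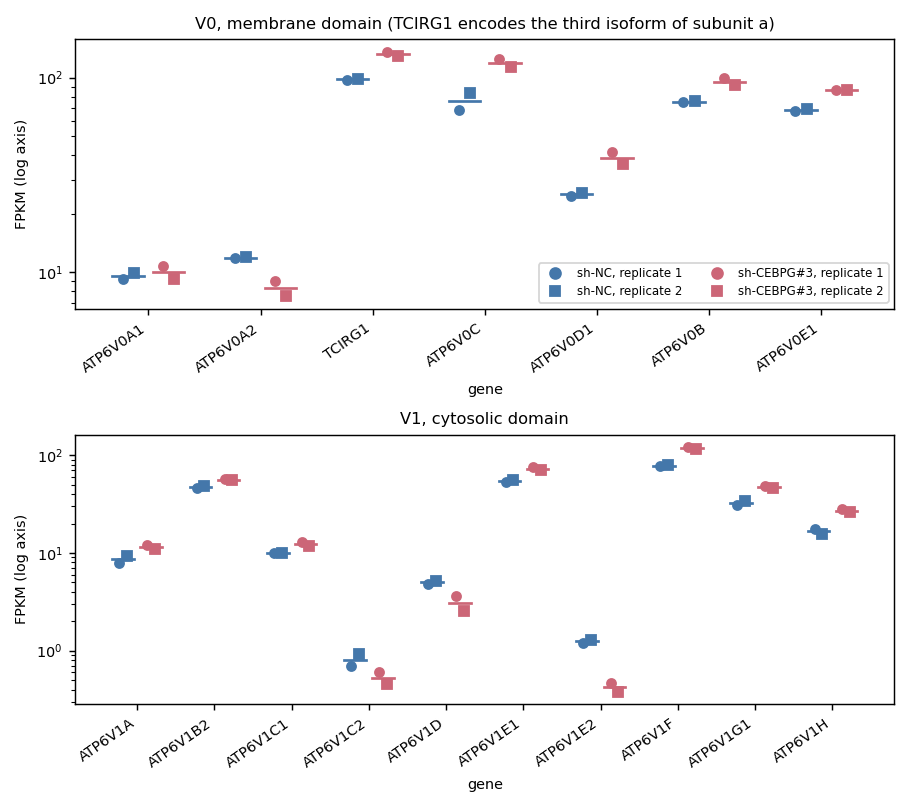
FPKM (y axis, log axis) of the tested V-ATPase subunit genes in each of the 4 libraries, with V0 genes and TCIRG1 in the upper panel, V1 genes in the lower panel and a line at each group mean. Of the genes drawn, ATP6V0A2, ATP6V1C2, ATP6V1D and ATP6V1E2 are lower in both sh-CEBPG#3 libraries, ATP6V0A1 overlaps between the groups, and the others are higher.

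Lysosomal genes outside the 64 were measured too. Of 35 such genes, 32 were tested, and 19 rose and 2 fell (59.4% and 6.25%, against 18.5% and 23.8% of all genes). Of those that rose, ACP5 passed the filter on low values only through sh-CEBPG#3 cells (means of 0.11 and 1.37 FPKM). PLBD2, a phospholipase-like protein of the lysosome, and CD68, a membrane protein of macrophage lysosomes, rose by 1.42 and 1.14 on the log2 scale. ATP6AP1 and ATP6AP2, accessory subunits of the V-ATPase, rose by 0.81 and 0.54. TMEM192 and MAN2B2 were the 2 that fell, with log2 changes of -0.54 and -0.33.

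New hydrolases are tagged with mannose phosphate and carried from the Golgi by receptors. Of 16 genes of this route, 6 rose and 2 fell (37.5% and 12.5%, against 18.5% and 23.8% of all genes). The share called in either direction, 50%, was near the 42.2% of all genes. The mannose-phosphate receptors rose, with M6PR going from 60.3 and 62.9 FPKM to 114 and 104 FPKM (log2 change 0.81, adjusted p = 2.29e-05 in limma) and IGF2R from 27.5 and 29.7 FPKM to 40.1 and 39.4 FPKM (log2 change 0.46). SORT1, a receptor for GRN and PSAP, rose by 0.44. GNPTAB, which makes the tag, and SUMF1, which activates the sulfatases, had log2 changes of 0.04 and -0.10 and did not pass the test. The adaptor subunits GGA3 and AP1G1 were the 2 that fell (-0.30 and -0.45). The Ragulator, the Rag GTPases and folliculin hold TFEB and TFE3 out of the nucleus when amino acids are plentiful. Of 13 genes of this set, 7 rose and 0 fell (53.8% rose, against 18.5% of all genes). The share called in either direction was 53.8%, against 42.2% of all genes. The number called was 2 with the most abundant transcript of each gene and 4 with no filter. RRAGB, FNIP1 and LAMTOR4 led the genes that rose, with log2 changes of 0.70, 0.55 and 0.51. At an unadjusted p under 0.05 in limma the number that fell was also 0.

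Some markers of other states moved with the same comparison. Of 9 markers of monocyte or macrophage maturation with a row, 6 were tested. FCGR1A, ITGAX, CSF1R and CD36 rose (66.7%, against 18.5% of all genes). ITGAM and CD86 had log2 changes of 0.09 and 0.11 and did not pass the test (adjusted p = 0.451 and 0.508 in limma). The summed level of the 9 genes was 33.3 and 36 FPKM in sh-NC cells and 56.9 and 52.9 FPKM in sh-CEBPG#3 cells. The defining markers CD14 and CD163 were at 0 in 1 of the sh-NC libraries each and reached at most 1.09 and 0.244 FPKM in sh-CEBPG#3 cells. Of the 6 markers of the line, 2 rose and 2 fell (33.3% each, against 18.5% and 23.8% of all genes). LYZ (lysozyme), a product of monocytic cells, rose 5.19-fold, and CD33 rose by 0.37 on the log2 scale. MEIS1 and HOXA9 fell (log2 changes of -0.87 and -0.36). PTPRC and FLT3 had log2 changes of 0.21 and -0.14 and did not pass the test. Of 10 interferon response genes, 9 were tested and rose, where 18.5% of all genes did. Of these, 2 (IFIT1 and CXCL10) passed the filter only through sh-CEBPG#3 cells. MX1 was under the filter and its groups overlapped (0.122 and 0.235 FPKM in sh-NC cells, 0.23 and 0.2 FPKM in sh-CEBPG#3 cells). The summed level of the list went from 37.7 and 41 FPKM to 749 and 725 FPKM. The part of these lists in the change of the lysosomal genes was not tested.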

How the data were processed

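RNA-seq of 2 sh-NC and 2 sh-CEBPG#3 libraries of MV4-11 cells was analysed. Per the labels, the authors used the Illumina TruSeq RNA kit, which does not mark strand, and HISAT2 2.0.5 with hg38, and they deposited FPKM values, 1 per RefSeq transcript and library. The program that computed FPKM and the annotation version are not given in the sources used here. FPKM is scaled within a library, so a few abundant genes can shift all others, and it carries no counts, so edgeR and DESeq2 were not run. Of 1027 low values under 0.06 FPKM in both sh-NC libraries, at most 1.17% shared a ratio within 1%, so no steps of whole reads were seen.

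Of 28780 rows, 199 had no value. Rows were summed by symbol to 16490 genes, and the 12142 with a mean of at least 0.5 FPKM were fitted on log2(FPKM + 1) with limma 3.58.1 (R 4.3.3; lmFit, eBayes with a trend, no block), with Benjamini-Hochberg adjustment over all of them. The fit was tested on simulated data. Pearson's r was 0.993 and 0.994 within groups and 0.962 to 0.964 across them. Motifs were searched with Python 3.11.15 in RefSeq promoters.

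All 64 members are accounted for. Values in every library are given for members past the study's threshold and, in each role, for the largest increase and decrease that passed the test and the highest mean level. Others are given where a result turned on them, which was decided after their values were seen, as for the pair ratios and transcripts. The members and lists were chosen with earlier results of these data known. Other settings tried were quantile normalization, totals made equal, a filter at 1 FPKM or none, pseudocounts of 0.1 and 0.01, the most abundant transcript of a gene, a fit without trend, a replicate block, and leaving out each library. Tests per transcript were added after the data were seen. Some genes of the lists are not reported here by name.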

Additional observations from a re-analysis of the deposited data

How the results depend on the processing

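Under the alternatives with all 4 libraries, 39 to 50 members passed an adjusted p of 0.05 in limma, 35 to 43 higher and 4 to 7 lower, against 48 (42 and 6). The lowest count, 39, was with the most abundant transcript of each gene, where 65% of members and 23.9% of all genes passed. With no filter it was 41, or 64.1% against 24.8%. In both settings CTSL, IDUA, IDS, TFEB, ATP6V1A, ATP6V1C1 and ATP6V1D lost their call (adjusted p from 0.0563 to 0.144 in limma), and ATP6V0B and CLN3 also did so with the most abundant transcript. With each library left out, where the lone library of a group is assumed to vary like the others, the ranges were 38 to 48 called, 33 to 43 higher, 5 to 6 lower (31.9% to 41.2% of all genes called and 12.7% to 19.8% higher), 7 to 10 past the study's threshold and 0.40 to 0.55 for the median log2 change. The number past the study's threshold was 11 with pseudocounts of 0.1 and 0.01, 7 with quantile normalization and 8 otherwise.

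Of the delivery genes, 4 passed with the most abundant transcript and 5 to 9 with a library left out, against 8, and without sh-CEBPG#3 replicate 2 it was 5. Of the Ragulator, Rag and folliculin genes, 2 passed with the most abundant transcript, 4 with no filter and 4 to 7 with a library left out, against 7, and without sh-CEBPG#3 replicate 1 it was 4. The log2 change of CEBPG stayed between -0.87 and -0.70 in every setting. The difference in the share of ATP6V0A2 ranged from -4.8 to -4.1 percentage points with a library left out.

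Signs changed for genes near 0. MAN2B1 was -0.02 with equal totals and -0.0026 with quantile normalization, CTSK was -0.01 with equal totals, NAGLU was 0.01 with quantile normalization, and GUSB was 0.04 with the most abundant transcript. CLN3 was -0.54 there, since that transcript is NM_000086. With a library left out, the ranges were -0.07 to 0.07 for MAN2B1, -0.13 to 0.15 for CTSK, -0.09 to 0.02 for NAGLU, -0.21 to 0.02 for GUSB, -0.05 to 0.12 for CTSH and -0.04 to 0.15 for ATP6V0A1. TPP1 passed with equal totals and quantile normalization (adjusted p = 0.0236 and 0.0194 in limma), and ARSB with both and with a mean of at least 1 FPKM (adjusted p from 0.0108 to 0.0468). For CLN3, and for GUSB with its most abundant transcript (NM_000181), the choice of transcript is the difference. For the other changes the cause was not tested.

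The deviations of libraries with the same replicate number had a correlation of 0.061, and so the numbers were not taken to pair them. With the replicate block 45 members passed, 40 higher and 5 lower, and TFEB, ATP6V1B2 and ATP6V1C1 lost their call.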
